A study of Persea americana and Macadamia integrifolia and Mangifera indica with 6 samples.

Results

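miR162 and miR168 are conserved plant microRNA families that act on the small RNA machinery itself. They were chosen by name, as every entry of the miRNA abundance values called miR162 or miR168, and account for 5 of the 123 entries and 2 of the 20 families. Of these entries, 4 were miR162 and 1 was miR168. The Arabidopsis miR162b-3p and rice miR162a entries had identical values in all 6 libraries and were treated as 1 sequence, which leaves 4 distinct sequences of the 53 in all. They are the miR162 3p sequence, the Arabidopsis miR162b-5p sequence, the rice miR162b sequence, whose entry names no arm, and the Arabidopsis miR168a-3p sequence. The miR168 5p arm is not among the entries analysed here.

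Plant miRNAs are cut from hairpin precursors by DICER-LIKE 1 (DCL1) and loaded into ARGONAUTE 1 (AGO1), which silences the matching transcripts. In Arabidopsis, miR162 guides cleavage of the DCL1 transcript and miR168 that of the AGO1 transcript, so each family takes part in a negative feedback loop on the pathway that makes it. The 3p arm of miR162 and the 5p arm of miR168 are the strands known to guide this cleavage in Arabidopsis. The miR168 sequence measured here is therefore the opposite strand of the miR168 duplex, and its level need not equal that of the guide strand.

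Leaves were sampled from avocado (Persea americana, cultivar Hass), macadamia (cultivar HAES741) and mango (cultivar Kensington Pride), with 1 small RNA library of juvenile leaves and 1 of mature leaves per species. The juvenile plants were seedlings of 1 month, raised in a nursery (avocado) or a glasshouse (macadamia and mango). The mature plants were flowering trees in the field, aged 10 years in avocado and macadamia and 5 years in mango. The mature avocado trees were grafted, the mature mango trees were seedlings, and the methods describe pooling of leaves or plants without naming the pool that was sequenced. Age and growing conditions cannot be told apart in these samples. The values are RPM, read numbers scaled to the total of 20 to 24 nt reads of a library. Read numbers were recovered from them at the smallest depth that turns each of the 53 sequence values into an integer, to the precision of the 3 decimals given. This depth was lowest in juvenile mango (1141472 reads) and highest in mature avocado (7509125 reads). The 95% intervals below are exact (Clopper-Pearson) and cover counting error alone, and PCR copies can make them too narrow. Each species and age is a single library, so no replicate error can be given, and the leaf label could not be checked against markers in values that hold only miRNAs.

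miR162 was abundant in macadamia, low in avocado and in mature mango, and without a read in juvenile mango. Its 3p sequence had 16520 reads in juvenile and 2502 in mature macadamia leaves, or 2289 RPM (95% interval 2254 to 2324) and 1456 RPM (1400.0 to 1515). In avocado it had 5 and 12 reads, or 1.09 RPM (0.352 to 2.53) in juvenile leaves and, in mature leaves, 1.60 RPM (0.826 to 2.79). In mango it had 0 reads in juvenile leaves, where 3 reads would be 2.63 RPM, and 51 reads in mature leaves, or 11.3 RPM (8.41 to 14.8). The 2 macadamia libraries thus stood apart from the other 4. In order of level, juvenile macadamia was followed by mature macadamia, mature mango and mature avocado, each separated from the next by more than counting error. Mature and juvenile avocado were not separated (ratio 1.47, 95% interval 0.483 to 5.33), and neither were juvenile avocado and juvenile mango.

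miR168, measured by its 3p arm, lay between 124 and 363 RPM in macadamia and mango and under 4 RPM in avocado. It had 1501 reads in juvenile and 624 in mature macadamia leaves, or 208 RPM (198 to 219) and 363 RPM (335 to 393). In mango it had 142 and 768 reads, or 124 RPM (105 to 147) in juvenile leaves and, in mature leaves, 170.1 RPM (158 to 183). In avocado it had 18 and 8 reads, or 3.91 RPM (2.32 to 6.18) and 1.07 RPM (0.460 to 2.10). Mature macadamia was highest, followed by juvenile macadamia, mature mango, juvenile mango, juvenile avocado and mature avocado. Every step of this order was larger than counting error. The smallest was the step from juvenile macadamia to mature mango (1.22-fold, 1.12 to 1.34) and the largest the step from juvenile mango to juvenile avocado (31.8-fold, 19.4 to 55.3).

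**Figure D1:**
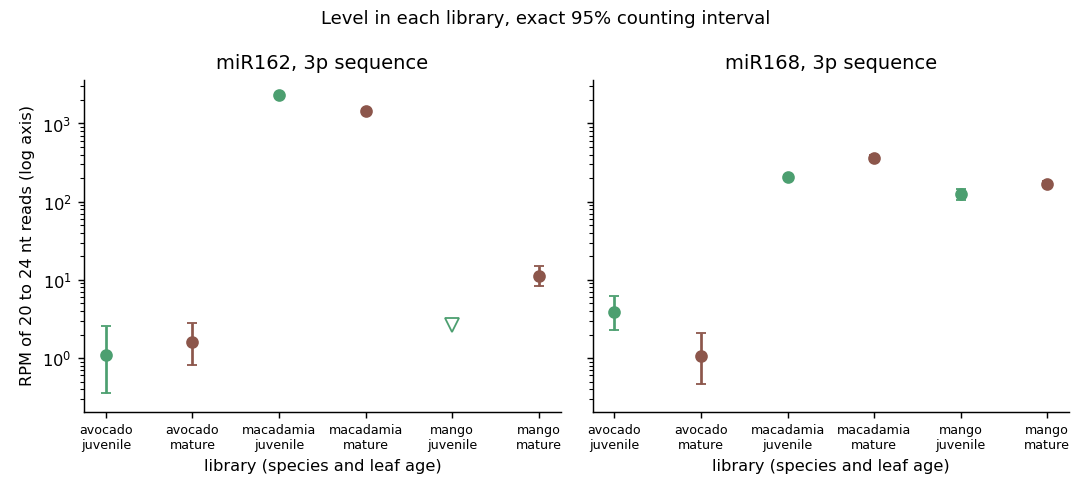
RPM of the miR162 3p and miR168 3p sequences in the 6 libraries on a log axis, juvenile in green and mature in brown, with exact 95% counting intervals as bars. The open triangle marks juvenile mango, with 0 miR162 reads, at the level of 3 reads (2.63 RPM). miR162 is above 1000 RPM only in the 2 macadamia libraries, while miR168 is above 100 RPM in the 4 macadamia and mango libraries.

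Among the 20 families of the listed miRNAs, miR162 ranked 6th in juvenile and 5th in mature macadamia. There it held 3.06% and 2.65% of the listed miRNA reads. It ranked 17th and 16th in juvenile and mature avocado and 15th in mature mango. miR168 was ranked by its 3p arm alone. It was 11th and 9th in macadamia, 12th and 10th in mango, and 16th and 17th in avocado, in juvenile and mature leaves respectively. Families with both arms listed were ranked by the arm with the larger total, so this is not the standing of the miR168 guide strand. The miR168 3p arm held 0.278% of the listed reads in juvenile macadamia, 0.661% in mature macadamia, 0.161% in juvenile mango and 0.103% in mature mango. Here and below, shares of the listed reads leave out the arm with the smaller total in families with both arms listed.

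The miR162 3p sequence differed more between macadamia and avocado than any of the other sequences compared, in either direction and at both ages. In juvenile leaves the miR162 3p sequence was 2109-fold higher in macadamia than in avocado (95% interval 903 to 6495), the largest macadamia excess of the 38 sequences with at least 10 RPM in either library. Its log2 ratio of RPM + 1 was 10.10, against a median of -0.94 over the 38 sequences and 5.43 for the next sequence. miR168a-3p was 53.2-fold higher in juvenile macadamia than in juvenile avocado (33.6 to 90.1), the 3rd largest macadamia excess, and ranked 8th when sequences higher in avocado are counted as well. In mature leaves the macadamia excess over avocado was 911-fold (521 to 1766) for the miR162 3p sequence and 341-fold (172 to 793) for miR168a-3p. These were the largest and the next largest macadamia excess of 38 sequences, whose median log2 ratio was 0.17, and miR168a-3p ranked 3rd in either direction. At both ages the miR162 3p sequence and miR168a-3p passed 10 RPM only through macadamia, where they are high. The ranks therefore describe these libraries and are no test.

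**Figure D2:**
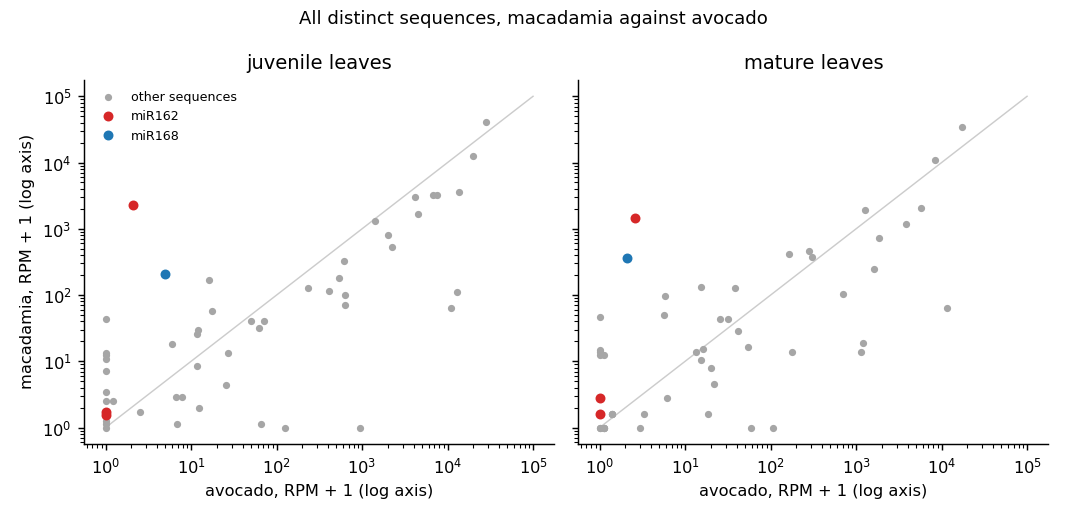
RPM + 1 of each distinct sequence in macadamia against avocado, in juvenile (left) and mature leaves (right), both axes log. The grey line marks equal values. The abundant miR162 sequence and the miR168 sequence lie above the line, with log2 ratios of 10.10 and 5.41 in juvenile and 9.13 and 7.46 in mature leaves, and the low red points near the origin are the 2 rare miR162 sequences.

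Against mango, the 2 families differed. The miR162 3p sequence was at least 871-fold higher in juvenile macadamia than in juvenile mango when the mango library is set at 3 reads, or 708-fold at the lower bound of the exact interval, and 129-fold higher in mature leaves (97.8 to 174). It ranked 1st of 33 sequences in juvenile and 1st of 36 in mature leaves. In juvenile leaves it passed 10 RPM only through macadamia, where it is high, so that rank is a description alone. miR168a-3p was 1.67-fold higher in macadamia in juvenile leaves (1.41 to 2.0) and 2.14-fold higher in mature leaves (1.92 to 2.38), at log2 ratios of 0.74 and 1.09. These are near the medians of the 33 and 36 sequences with at least 10 RPM in either library, 0.74 in juvenile and 0.79 in mature leaves. Reads were matched to Arabidopsis and rice miRNAs, so a family whose sequence differs from both in a species would be undercounted there, and the part of this in the species differences was not tested.

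The few miR162 reads outside macadamia were the smallest relative to juvenile macadamia, which largely restates the species differences above. Of the 15 sequences with at least 1000 reads in juvenile macadamia, the miR162 3p sequence had the lowest number of reads relative to that library in each of the 4 avocado and mango libraries. The 51 reads in mature mango equal 0.309% of the 16520 in juvenile macadamia, and the next lowest sequence, rice miR166g-3p, reached 1.09%. The 5 and 12 reads in avocado equal 0.0303% and 0.0726%, where the next lowest sequence was miR168a-3p at 1.20% and 0.533%. The part of reads passing between libraries in these values was not tested.

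Within miR162, nearly all reads belonged to the 3p sequence. In macadamia it held 16520 of 16529 reads in juvenile leaves (99.95%, 95% interval 99.90 to 99.98) and 2502 of 2506 in mature leaves (99.84%, 99.59 to 99.96). The miR162b-5p sequence, the opposite strand of the duplex, had 4 and 3 reads there, and the rice miR162b sequence had 5 and 1 reads. Both rare sequences had 0 reads in the avocado and mango libraries, where 3 reads would be 0.651 RPM in the juvenile and 0.400 RPM in the mature avocado library, and for mango 2.63 and 0.664 RPM. The 5p arm thus made up 0.0242% of the arm-named miR162 reads in juvenile and 0.120% in mature macadamia. In the other 5 families with entries of both arms, the rarer arm took between 0.249% (miR396) and 12.8% (miR166) in juvenile macadamia and between 0.347% (miR396) and 30.9% (miR166) in mature macadamia. An entry taken from Arabidopsis or rice counts only reads that match it, and whether the macadamia 5p strand has the same sequence was not tested.

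On the RPM scale, miR162 was lower in mature than in juvenile macadamia leaves and higher in mature mango leaves. On that scale it was not separated by age in avocado. In macadamia the family sum was 2289.8 RPM for juvenile against 1457 RPM for mature leaves, a 1.57-fold lower level (1.51 to 1.64), a log2 ratio of RPM + 1 of -0.65. The median log2 ratio of the macadamia families was -0.53, and relative to it the miR162 ratio is -0.12, close to 0. In mango the step from 0 to 51 reads is at least 4.30-fold when the shallower juvenile library is set at 3 reads, and the exact interval of the ratio starts at 3.37-fold. At the depth of juvenile mango, the mature level of 11.3 RPM would correspond to 12.9 reads. The mango log2 ratio of 3.62 depends on the pseudocount because 1 library is at 0, and is 6.83 with a pseudocount of 0.1 RPM and 1.70 with one of 5 RPM. The avocado ratio of 1.47 rests on 5 and 12 reads, and its log2 ratio of 0.32 is 1.71 relative to the median family. As a share of the listed miRNA reads, miR162 stood at 0.000923% in juvenile and 0.00287% in mature avocado. No counting interval was computed on either of these scales, so the lack of separation holds for RPM alone.

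miR168 had a higher RPM in mature leaves of macadamia and mango. The macadamia level was 1.75-fold higher (1.59 to 1.92), a log2 ratio of 0.80 that ranked 3rd of 18 families, or 1.33 relative to the median family. The mango level was 1.37-fold higher (1.14 to 1.65), a log2 ratio of 0.45, or 0.50 relative to a median of -0.05. In avocado miR168 had fewer reads in mature leaves, a 3.67-fold lower level (1.52 to 9.75) and a log2 ratio of -1.25, against an avocado median of -1.39. Relative to that median it is 0.14, but this sign depends on the pseudocount, and with 0.1 RPM the value is -0.39. The avocado value rests on 18 and 8 reads.

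**Figure D3:**
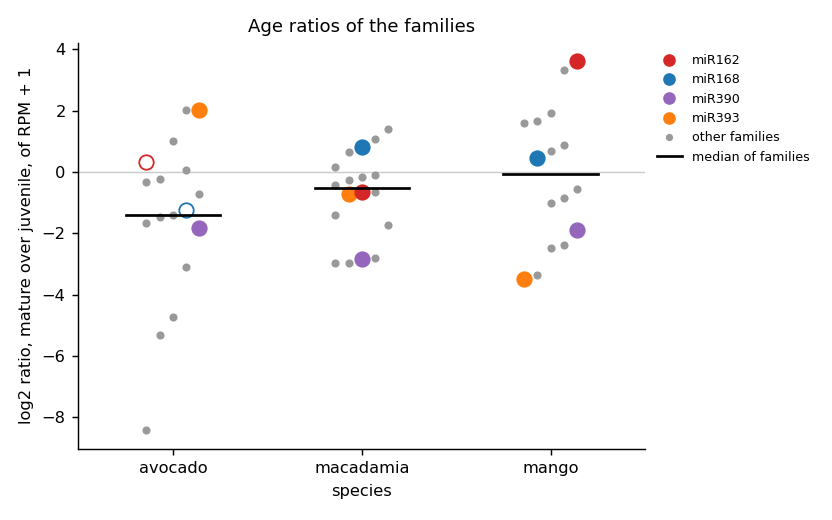
Log2 ratio of mature over juvenile leaves, on RPM + 1, for each family with at least 10 RPM in 1 or both libraries of the species, with the median as a black line. miR162 and miR168 in avocado, both under 10 RPM, are shown as open circles and are not part of the median. miR162 lies near the macadamia median (-0.65 against -0.53) and at 3.62 in mango, where its juvenile library has 0 reads and the value depends on the pseudocount. miR168 lies above the median in macadamia and mango, and in avocado at -1.25 against -1.39, a difference that turns with a pseudocount of 0.1 RPM (-0.39 relative to the median).

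Counted at 2-fold on the log2(RPM + 1) scale, 0 of the 2 member sequences past 10 RPM in macadamia differed between ages, where 38.2% of the 34 sequences past this level did. This count depends on the scale, as miR168a-3p in macadamia has a log2 ratio of 1.33 relative to the median family. The share of all sequences was not counted on that scale. In mango 1 of 2, the miR162 3p sequence, was at least 2-fold higher in mature leaves, against 37.9% of 29 sequences. It passed 10 RPM only through the mature library where it is high, so nothing is read from this count. In avocado none of the 4 member sequences reached 10 RPM. The rule chosen for the test across species, at least 10 RPM in every species, therefore left out all 4 members. Members left out were to be described without a test, so the fit below is an addition. With at least 10 RPM in any library, an alternative setting, 2 members entered the limma fit with species as a block. Over the 3 species, the log2 fold change of the miR162 3p sequence was 1.09 with a 95% interval from -0.81 to 3.00 (limma, adjusted p = 0.686). limma borrows most of the variance behind this interval from the other sequences, while the log2 ratios of the species run from -0.65 to 3.62. Without a filter, where less is borrowed, the interval is -1.36 to 3.55. The log2 ratio was positive in 2 of 3 species, of which mango alone was separated by counting error on the RPM scale. Without mango the shared value is -0.17. That of miR168a-3p was 0.00 with a 95% interval from -1.86 to 1.86 (limma, adjusted p = 1.00). It was positive on the RPM scale in macadamia and mango, both beyond counting error. The mango direction turns when miR168 is taken as a share of the listed miRNA reads. The shared value is 0.62 without avocado and -0.40 without macadamia. limma called 4.88% of the 41 sequences and 0 of the 2 members. At an unadjusted threshold of 0.05 it would pass 8 of the 41 sequences and likewise 0 of the 2 members. An age effect shared by the species was thus not detected, and the intervals include changes of more than 3-fold either way for miR168a-3p.

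The ratio of miR162 to miR168 reads within a library does not depend on how libraries are scaled. It was 11.0 in juvenile macadamia (95% interval 10.4 to 11.6) and 4.01 in mature macadamia (3.67 to 4.39), a 2.74-fold lower ratio in mature leaves (2.47 to 3.04). In avocado it was 0.278 (0.0806 to 0.776) in juvenile and 1.5 (0.564 to 4.23) in mature leaves, 5.40-fold higher (1.20 to 25.8). In mango it was below 0.0263 in juvenile and 0.0664 (0.0490 to 0.0882) in mature leaves, higher in mature leaves with a lower interval bound of 2.43-fold. miR162 reads exceeded miR168 3p reads clearly in macadamia and were far fewer in mango, and the ratio moved down with age in macadamia and up in avocado and mango. The strand of miR168 that guides cleavage is not in this ratio.

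**Figure D4:**
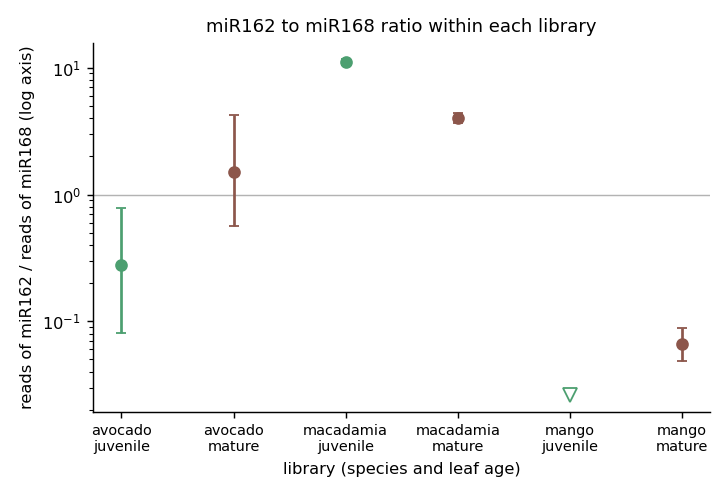
Reads of miR162 divided by reads of miR168 within each of the 6 libraries on a log axis, juvenile in green and mature in brown, with exact 95% intervals as bars. The open triangle gives the upper bound for juvenile mango (0.0263), where miR162 has 0 reads. The ratio is 11.0 and 4.01 in macadamia, 0.278 and 1.5 in avocado, and 0.0664 in mature mango.

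Of the other families tied to this pathway, few were among the listed miRNAs. Of 4 families directed at or derived from the small RNA machinery, miR162 and, by its 3p arm alone, miR168 were measured. miR403, which targets AGO2, and miR838, which arises from a DCL1 intron, are not among the entries analysed here. On log2(RPM + 1), neither measured family differed 2-fold between ages in macadamia. Relative to the median family, however, miR168 there had a log2 ratio of 1.33, past 2-fold. In mango 1 of 2, miR162, was more than 2-fold higher in mature leaves, with the limit on its 0 juvenile reads given above. On log2(RPM + 1) over all families past 10 RPM, 2 were higher and 6 lower of 18 in macadamia, and 5 were higher and 6 lower of 16 in mango. Of 9 families known to start secondary siRNA production, miR390 and miR393 were measured. miR390, which acts with AGO7 on the TAS3 transcript, stood at 634.8 RPM in juvenile avocado against 179 RPM in mature avocado. The juvenile and mature values were 98.4 and 12.8 RPM for macadamia, then 58.7 and 15.1 RPM for mango. Its mature level was the lower one in each of the 3 species, also relative to the median family (-0.43, -2.32 and -1.84). This is not particular to miR390. miR156, miR157, miR164, miR394 and miR396 were also lower in mature leaves of each species, the first 3 of them also relative to the median family. miR393, which targets TIR1-like auxin receptors, had 15.8 RPM in the juvenile avocado library against 67.3 RPM in the mature one. Its juvenile and mature values were 41.7 and 25.0 RPM for macadamia, then 74.5 and 5.76 RPM for mango. Both were well above miR162 and miR168 in avocado, where miR162 and miR168 had 1.07 to 3.91 RPM.

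The families most like miR162 and miR168 across the 6 libraries were sought by the root mean square difference of their centred log2(RPM + 1) profiles, over 18 other families. For miR162 these were miR399, which acts in phosphate homeostasis, at 2.81, miR408, which targets transcripts of copper proteins, at 3.47, and miR168 at 3.52. For miR168 they were miR408 at 1.72, miR398, which targets copper superoxide dismutase transcripts, at 1.99, and miR399 at 2.34. miR162 came 8th for miR168. miR399 had 8.87 RPM in the juvenile and 25.0 RPM in the mature macadamia library, 0.133 RPM in mature avocado and 0 reads elsewhere. miR408 was at 12.5 and 11.6 RPM in macadamia, 5.26 and 1.11 RPM in mango and 0 reads in avocado. Both were highest in macadamia, as was miR162, at levels far below its 2289 RPM. These differences are a description over 6 libraries that share their depth and normalisation within a column.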

How the data were processed

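The members and the lists of families were chosen with earlier results of these data known. The authors trimmed adapters (Trim Galore), dropped rRNA reads (BBduk) and counted matches to miRBase entries of Arabidopsis and rice by means of SCRAM. No version of these is given in the sources used here. The deposited unit is RPM, with 3 decimals, and 0 columns were left unmapped.

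Whole reads were recovered from the RPM steps as the smallest depth that fits every value, so a whole multiple of it would fit as well. A family value sums the arm with the larger total and entries without a named arm. Ratios used RPM + 1. The text names every member sequence, the measured families of both lists and the 3 families nearest to each member. limma 3.58.1 (R 4.3.3) fitted log2(RPM + 1) with species as a block and Benjamini-Hochberg adjustment over all sequences past the filter. The planned filter left out all members, and members left out were to be described without a test. The fit with 10 RPM in any library, set out at the start as an alternative setting, is given in addition. limma and the intervals were tested on simulated data. Intervals, ratios and plots used Python 3.11.15, scipy 1.17.1 and matplotlib 3.10.9.

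Other settings tried were log2 ratios centred on the median family, a pseudocount of 0.1 or 5 RPM, the most abundant sequence alone, both arms summed, other filters and fold thresholds, family sums, a fit without the block, and each species left out in turn.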

Additional observations from a re-analysis of the deposited data

Results flagged for a closer look

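With 1 library per species and age, the differences below are between single pairs of libraries and were not tested. The mature over juvenile log2 ratio of miR162 in mango exceeded that in macadamia by 4.27, with counting intervals on opposite sides of no change. It rests on 51 reads in mature mango and 0 in juvenile mango, and the macadamia ratio is -0.12 relative to its median family. For miR168 the log2 ratio was higher by 2.05 in macadamia than in avocado, and by 1.70 in mango than in avocado. By share of the listed miRNA reads, miR168 was lower in mature leaves in both mango and avocado. Relative to the median family the avocado value is 0.14 with a pseudocount of 1 RPM and -0.39 with one of 0.1 RPM, so its direction on that scale depends on the pseudocount. The miR162 to miR168 ratio within a library, which needs no scaling, was 5.40-fold higher in mature avocado and was 2.74-fold lower in mature macadamia. The avocado multiple is 14.8 times that of macadamia and rests in avocado on 5 and 12 miR162 reads and 18 and 8 miR168 reads.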

How the results depend on the processing

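Of the values computed under other settings, 51 kept their direction and their side of any threshold, or stayed within the counting interval. Another 12 moved past these limits and 5 turned direction. Some of the 51 could not change. The counting interval of miR162 in mango has no upper bound, so a log2 ratio of 6.83 against 3.62 counts among the 51. The wide interval of miR162 in avocado likewise takes in 1.71, relative to the median family, against 0.32. The most abundant sequence alone and both arms summed leave the ratios of miR168, and of miR162 in avocado and mango, as they are. Dropping the filter or the block leaves the limma log2 fold changes as they are. Rescaled to the median family, the log2 ratios of miR162 and miR168 in macadamia moved to -0.12 and 1.33, and that of miR168 in avocado turned to 0.14. With a pseudocount of 0.1 RPM as well, a pair of choices added after seeing the data, these were -0.12, 1.34 and -0.39, so the turn in avocado also needs the pseudocount of 1 RPM. miR162 in mango was 6.83 with a pseudocount of 0.1 RPM and 1.70 with one of 5 RPM, and with the latter miR168 in avocado moved to -0.55. Division by the listed miRNA reads was not among the settings, and by that share miR168 was lower in mature mango. Leaving out 1 species, the shared log2 fold change of the miR162 3p sequence ran from -0.17 (without mango) to 1.97 (without macadamia) and that of miR168a-3p from -0.40 (without macadamia) to 0.62 (without avocado). The latter, at 0.00 with all species, was -0.18 with a pseudocount of 0.1 RPM, 0.22 with 5 RPM and 0.66 relative to the median family. For the miR162 3p sequence, at 1.09 with all species, these values were 2.23, 0.39 and 1.75. Adjusted p from limma ran from 0.327 to 0.989 for miR162 and from 0.555 to 1.00 for miR168a-3p over the alternatives, so neither was called in any. The filter of 10 RPM in every species tested 0 members, 10 RPM in any library 2 and no filter 4. Over all sequences limma called 3, 2 and 0 under these filters, all lower in mature leaves, and between 0 and 2 under the other settings. Without a filter, 1 member was 2-fold changed in avocado in place of 0, at 1.5-fold 2 in macadamia in place of 0, and past 50 RPM 0 in mango in place of 1. In avocado both families had 5 to 18 reads a library, and their low level rather than a shallow library sets that precision.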
